A study of Mus musculus with 6 samples.

Results

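YAP1 and TAZ are transcriptional coactivators that carry mechanical cues to the nucleus, and 10 genes of their circuit were followed here in embryoid bodies. These were grown from mouse iPSCs (induced pluripotent stem cells) and exposed to intermittent compressive force (ICF). The genes were chosen by name, with earlier results of these data known. They are the coactivators Yap1 and Wwtr1 (the gene of TAZ), the DNA-binding partners Tead1, Tead2 and Tead4, and the downstream or feedback genes Ctgf (also Ccn2), Cyr61 (also Ccn1), Amotl2, Ajuba and Lats2. All 10 were found among the 50686 genes of the count files, and all 10 were among the 16729 genes that passed the filter on low counts. Their counts ranged from 243 to 8504 reads per sample. After ICF, Wwtr1 was called lower in the main test, an unpaired edgeR fit that called 4.38% of all genes tested lower. That call was lost without control replicate 1, control replicate 2 or ICF replicate 2. Ctgf and Amotl2 were also lower in every ICF sample than in every control sample, as were 15.7% of all genes tested. They passed the threshold in edgeR with the donors paired and in DESeq2 with or without pairing, but not in the unpaired edgeR test used as the main one. Tead4 was higher in every ICF sample (15.6% of all genes were) and passed in edgeR with the donors paired, but not in the unpaired edgeR test or in DESeq2. Neither edgeR nor DESeq2, paired or not, called Yap1, Tead1, Tead2, Cyr61, Ajuba or Lats2.

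In the Hippo pathway, the kinases MST1 and MST2 (genes Stk4 and Stk3) activate LATS1 and LATS2, which phosphorylate YAP1 and TAZ and keep them in the cytoplasm. When the kinases are off, the coactivators enter the nucleus, bind TEAD factors and switch on target genes. Cell spreading, stiff substrates and tension favour nuclear YAP1 and TAZ, much of it without any change in their mRNA. In pluripotent cells and early embryos, YAP1 and TEAD4 are known for the choice between inner cell mass and trophectoderm.

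The iPSCs came from mouse gingival fibroblasts. They formed embryoid bodies in low attachment wells, received retinoic acid and were attached to gelatin-coated plates, and these steps were shared by both groups. The ICF group (3 samples, donors 1 to 3) was loaded with 1.5 g per square centimetre at 0.23 Hz for 24 h in serum-free medium. The control group (3 samples, donors 1 to 3) was left unloaded, also for 24 h. The study's text does not state the medium of the control separately. The donor number is used as the replicate number, and the study's methods speak of independent experiments without naming donors. No transgene, knockout or inhibitor distinguished the sequenced groups.

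Gene counts summed to 28711166 in the smallest library and 34194413 in the largest. Replicate 3 of both groups stood apart from replicates 1 and 2, and ICF replicate 3 held an excess of counts divisible by 4 (89.0% of its counts above 0, where the other 5 samples had 20.3% to 21.5%). For the 10 genes, 8 of the 10 counts of that sample were multiples of 4, and it had 20802 genes above 0 where the others had 24340 to 24889. Whether its reads were counted more than once was not tested. If they were, its total and its counts overstate the number of independent reads, and it rather than control replicate 3 would be the smallest library. The pluripotency label was checked with 9 marker genes, whose mean levels ran from 73.4 CPM for Zfp42 to 828.8 CPM for Pou5f1 (CPM, the usual depth-scaled unit of read counts, with library sizes adjusted by TMM factors for composition). Among 9 markers of fibroblasts or mesenchyme, which feeder cells or the retinoic acid step could contribute, levels ran from 0.0739 CPM for Lum to 180.0 CPM for Pdgfra. Pdgfra stood far above the rest of that list, whose highest control mean was 15.3 CPM, for Col1a1. In 6 endoderm markers they ran from 1.78 CPM for Afp to 667.8 CPM for Dab2, in 5 endothelial markers from 2.35 CPM for Kdr to 39.8 CPM for Pecam1, and in 6 neural markers from 0.175 CPM for Hoxb1 to 70.3 CPM for Tubb3. The samples are bulk RNA, so fewer cells of a type and less RNA per cell cannot be told apart.

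Levels of different genes were compared as CPM per kilobase of annotated exon, since a longer transcript gives more reads. In the control, the order of the mean length-scaled levels was Ctgf (57.6), Ajuba (50.3), Cyr61 (33.2), Yap1 (25.5), Tead2 (23.5), Amotl2 (19.2), Tead1 (16.2), Wwtr1 (16.0), Tead4 (8.09) and Lats2 (1.33), with Tead3, the remaining TEAD gene, at 1.55. Neighbours in this order whose control samples overlapped were Ctgf with Ajuba, Yap1 with Tead2, Tead1 with Wwtr1, and Tead3 with Lats2. All other neighbours were apart in all 3 control samples. Exon length here joins all annotated isoforms, so a gene with several isoforms is placed lower than by its longest transcript alone. Yap1 had 9257 bases against 5282 in its longest transcript, Tead1 had 13570 against 9964, and Cyr61 had 2019 by either length. The order by longest transcript was not computed, and neighbours such as Cyr61 and Yap1 can change places there.

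**Figure D1:**
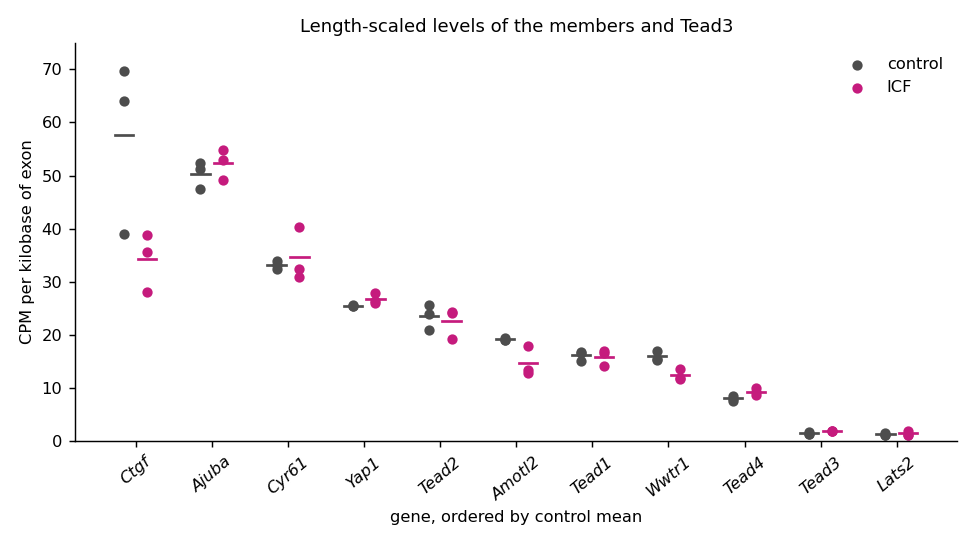
Length-scaled levels of the 10 genes and Tead3, as CPM per kilobase of annotated exon (linear axis). Points are samples (3 control in grey, 3 ICF in magenta) and bars are group means. Ctgf, the highest gene in the control at 57.6, lies at 34.2 with ICF, while Ajuba lies at 50.3 and 52.3.

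The first question is whether loading changed the coactivators. Yap1, on chromosome 9 of GRCm38 from 7931999 to 8004596, was at 235.6, 237.2 and 236.0 CPM in control replicates 1 to 3 and at 244.8, 241.5 and 259.7 CPM in ICF replicates 1 to 3. The ICF samples were all above the control samples (15.6% of all genes), by a small margin. The log2 fold change was 0.07 (standard error, SE, 0.03; adjusted p = 0.45 by the edgeR quasi-likelihood test, Benjamini-Hochberg over all genes), and the 95% interval of the difference ran from -0.02 to 0.16. Wwtr1, on chromosome 3 from 57455649 to 57575910, was at 74.5, 81.2 and 73.5 CPM in the control and at 65.4, 56.6 and 56.8 CPM with ICF. Every ICF sample was below every control sample, as for 15.7% of all genes. Wwtr1 fell by 0.36 on the log2 scale (SE 0.08, adjusted p = 0.029, edgeR), from 76.4 ± 4.2 (SD, n = 3) to 59.6 ± 5.07 CPM (SD, n = 3). It was the only member of the 10 called by edgeR without pairing, where 7.85% of all genes tested were called and 4.38% were called lower. The call was lost, with the direction kept, without control replicate 1 (adjusted p = 0.099), control replicate 2 (0.15) or ICF replicate 2 (0.099), and over all 16 alternative settings the adjusted p ran from 1.8e-05 to 0.15.

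Both coactivator genes carry the core TEAD motif, GGAATG or its reverse complement CATTCC, upstream of a RefSeq transcription start. The 250 bases before each start are shown, with the motif in capitals, because these are the members at the head of the circuit and just 1 of the pair was called. The sequences are those of the RefSeq table for GRCm38.p6, written 5′ to 3′ along the gene.
Yap1 (chr9:8004597-8004846, reverse strand): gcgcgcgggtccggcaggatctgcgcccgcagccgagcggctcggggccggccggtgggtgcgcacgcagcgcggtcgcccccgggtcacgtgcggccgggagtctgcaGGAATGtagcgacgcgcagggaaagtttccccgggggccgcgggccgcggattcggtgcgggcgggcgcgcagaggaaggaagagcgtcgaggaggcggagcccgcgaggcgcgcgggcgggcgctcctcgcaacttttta
Wwtr1 (chr3:57575911-57576160, reverse strand): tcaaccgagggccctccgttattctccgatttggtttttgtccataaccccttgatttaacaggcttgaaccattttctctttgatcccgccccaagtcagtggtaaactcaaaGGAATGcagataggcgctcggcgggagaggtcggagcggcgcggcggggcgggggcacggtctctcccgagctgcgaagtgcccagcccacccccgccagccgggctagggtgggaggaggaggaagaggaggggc
The motif began 141 bases before the Yap1 start and 136 bases before the Wwtr1 start. In these 300-base windows (250 before the start and 50 after it) the motif, on either strand, was found in 14.7% of all 32851 windows of the table. A match in the letters is a description and shows no binding.

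**Figure D2:**
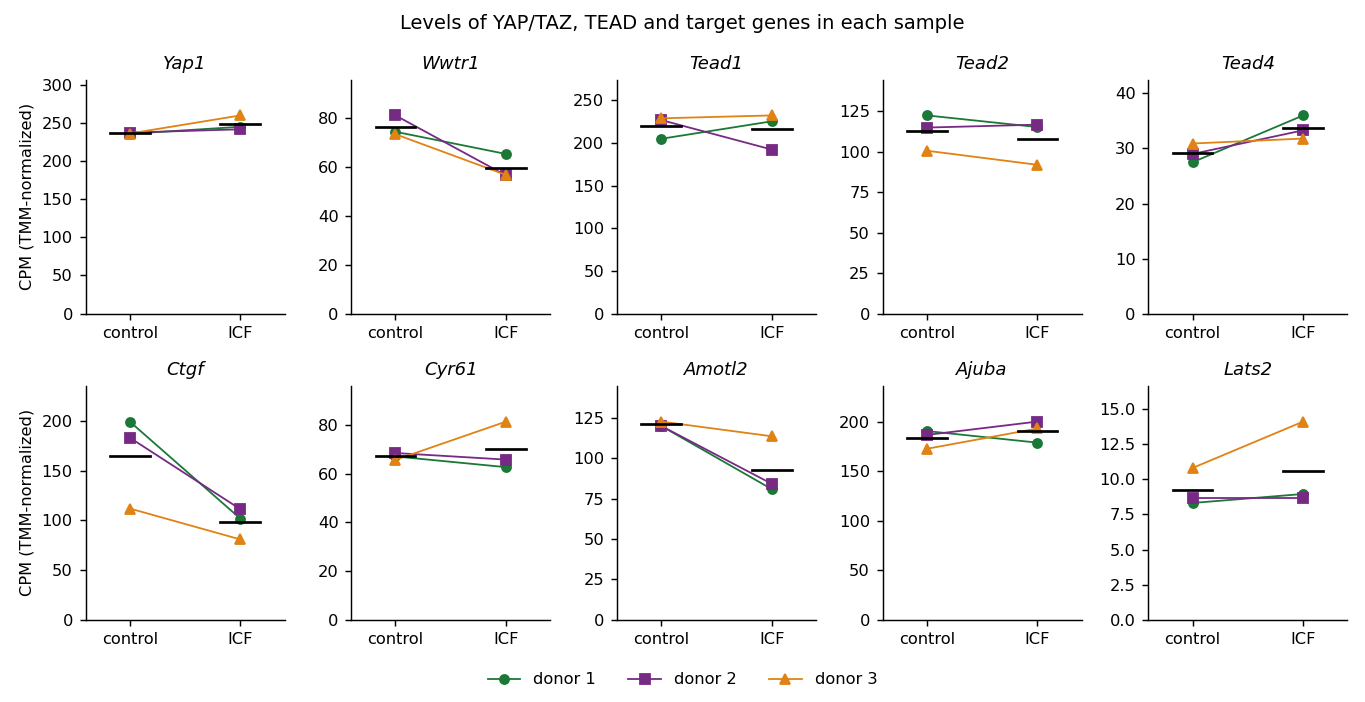
CPM of each of the 10 genes in each sample (linear axes from 0), with lines joining the control and ICF samples of the same donor and black bars for group means. Wwtr1, Ctgf and Amotl2 go down in all 3 donors, Yap1 and Tead4 go up in all 3, and the other 5 genes do not go 1 way in all 3.

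The ratio of Wwtr1 to Yap1 counts within a sample does not depend on how libraries are scaled. It was 0.316, 0.342 and 0.312 in control replicates and 0.267, 0.234 and 0.219 after ICF. All ICF ratios were below all control ratios, a log2 difference of -0.43 (SE 0.10, 95% interval -0.7 to -0.17, exact two-sided permutation test p = 0.1, which is the smallest p that 3 samples against 3 allow). This and 4 further ratios were chosen after the levels had been seen, and adjusted over the 5 ratios the exact permutation p was 0.125. That adjustment does not cover the other pairs that could have been chosen, so all 5 ratios are given as description only.

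The TEAD factors bring YAP1 and TAZ to DNA. Per kilobase, Tead2 was the highest TEAD gene in both groups, with 23.5 ± 2.32 in the control and 22.5 ± 2.91 CPM per kilobase with ICF (SD, n = 3). Tead1 followed with 16.2 ± 0.984 and 16.0 ± 1.58, Tead4 with 8.09 ± 0.466 and 9.36 ± 0.60, and Tead3 with 1.55 ± 0.246 and 2.01 ± 0.0374 CPM per kilobase (SD, n = 3). This order was the same in every sample.

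Tead1 is broadly expressed and acts in heart and muscle development, and lies on chromosome 7 from 112679318 to 112906807. It was at 204.8, 226.8 and 228.8 CPM in the control and at 225.3, 192.2 and 232.2 CPM with ICF. The groups overlapped, and the log2 fold change was -0.02 with an adjusted p of 0.89 (edgeR) and a 95% interval from -0.3 to 0.25. Tead2 is the TEAD gene known for high expression in early mouse embryos, and lies on chromosome 7 from 45215753 to 45233644. It was at 122.4, 114.9 and 100.6 CPM in the control and at 115.2, 116.7 and 91.9 CPM with ICF. Replicate 3 was the lowest sample of both groups, the log2 fold change was -0.06 with an adjusted p of 0.76 (edgeR), and the interval ran from -0.45 to 0.32.

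Tead4 is required for trophectoderm formation, and lies on chromosome 6 from 128224288 to 128300823. It was at 27.5, 29.0 and 30.9 CPM in the control and at 36.0, 33.3 and 31.8 CPM with ICF, so the groups did not overlap although the closest samples differed by little. The log2 fold change was 0.21 (SE 0.07), with an adjusted p of 0.14 without pairing and 0.024 with the donor as a replicate block (edgeR). DESeq2 with the same block gave 0.14, and over the 16 alternative settings the adjusted p ran from 0.0025 to 0.41. By donor the log2 difference was 0.39, 0.2 and 0.04. The ratio of Tead4 to Tead1 counts was 0.134, 0.128 and 0.135 in control replicates and 0.16, 0.173 and 0.137 after ICF. These ratios did not overlap, with a log2 difference of 0.24 (95% interval -0.05 to 0.52, exact permutation test p = 0.1, 0.125 over the 5 ratios). The ratio of Tead4 to Tead2 overlapped between the groups (log2 difference 0.28, interval -0.15 to 0.7, exact permutation test p = 0.2).

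Ctgf and Cyr61 encode secreted matricellular proteins and are the most used readouts of YAP1 and TAZ activity. Ctgf, on chromosome 10 from 24595442 to 24598683, was at 199.3, 183.1 and 111.9 CPM in the control and at 101.7, 111.2 and 80.8 CPM with ICF. Replicate 3 was the lowest sample of both groups, and the control sample of donor 3 was only just above ICF replicate 2. The log2 fold change was -0.75 (SE 0.29), the largest of the 10 genes, with an adjusted p of 0.055 (edgeR), a 95% interval from -1.53 to 0.1 and an exact two-sided permutation p of 0.1. Within donors the log2 difference was -0.97, -0.72 and -0.47. With the replicate block, which compares samples labelled with the same donor number, the log2 fold change was -0.73 and Ctgf passed with an adjusted p of 2.1e-11 (edgeR). That fit called 29.9% of all genes. DESeq2 gave an adjusted p of 0.047 without the block and 6.3e-06 with it. Without control replicate 3 the log2 fold change was -0.97 with an adjusted p of 0.0039 (edgeR). Without replicate 3 of both groups it was -0.84 with an adjusted p of 9.7e-10, in an edgeR fit that called 30.1% of all genes. Over all 16 alternative settings the adjusted p ran from 2.1e-11 to 0.2 (edgeR or DESeq2).

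Cyr61, on chromosome 3 from 145646976 to 145649981, was at 67.0, 68.4 and 65.6 CPM in the control and at 62.6, 65.7 and 81.3 CPM with ICF. ICF replicate 3 was the highest of the 6 samples and the other ICF samples lay within or below the control range. The log2 fold change was 0.06 (SE 0.12, adjusted p = 0.74, edgeR), with a 95% interval from -0.27 to 0.38. Without replicate 3 of both groups it was -0.08 with an adjusted p of 0.3 (edgeR). The ratio of Ctgf to Cyr61 counts was 2.97, 2.68 and 1.71 in control replicates and 1.62, 1.69 and 0.993 after ICF. The ICF ratios were lower in all 3 donors, with log2 differences of -0.87, -0.66 and -0.78, and the groups were just apart (log2 difference -0.77, 95% interval -1.74 to 0.2, exact permutation test p = 0.1, 0.125 over the 5 ratios).

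Amotl2, an angiomotin family member that binds YAP1 at cell junctions and is itself a YAP1 target, lies on chromosome 9 from 102716672 to 102733418. It was at 119.9, 119.9 and 122.6 CPM in the control and at 80.8, 84.1 and 113.5 CPM with ICF. The 3 control samples were nearly equal, and ICF replicate 3 was much closer to them than the other ICF samples were. The log2 fold change was -0.38 (SE 0.15), with an adjusted p of 0.083 without pairing, 6.9e-06 with the replicate block and 0.017 by DESeq2 without the block. Without ICF replicate 3 the log2 fold change was -0.54 with an adjusted p of 0.0014 (edgeR), and over the 16 alternative settings the adjusted p ran from 1.7e-07 to 0.24.

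Ajuba is a LIM protein that restrains LATS kinases, with its gene on chromosome 14 from 54567472 to 54577558. It was at 190.7, 186.8 and 172.8 CPM in the control and at 179.0, 200.3 and 193.3 CPM with ICF. The groups overlapped, and the log2 fold change was 0.06 (adjusted p = 0.64, edgeR, 95% interval -0.12 to 0.24). The ratio of Amotl2 to Ajuba counts was 0.629, 0.642 and 0.709 in control replicates and 0.451, 0.42 and 0.587 after ICF, lower in all 3 donors and without overlap (log2 difference -0.45, 95% interval -0.89 to -0.02, exact permutation test p = 0.1, 0.125 over the 5 ratios). Lats2, the kinase that closes the feedback loop on YAP1, was the lowest gene of the 10 and lies on chromosome 14 from 57689662 to 57758388. It was at 8.31, 8.69 and 10.8 CPM in the control and at 8.95, 8.69 and 14.1 CPM with ICF, with replicate 3 highest in both groups. The log2 fold change was 0.19 (adjusted p = 0.6, edgeR), and the wide 95% interval from -0.54 to 0.86 leaves changes of either sign undecided. In GENCODE M21, 56.3% of the 75-base reads that the longest Lats2 transcript can give also match the gene model Gm49361, which is not among the identifiers of the count files. For the other 9 genes this share was 6.04% (Ctgf, opposite strand only), 0.241% (Ajuba) and 0 otherwise.

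Promoter windows were found for 7 of the 10 genes, and Tead1, Tead4 and Ctgf had no entry. Of the 7, 5 held the TEAD motif before the start (12.6% of all windows did): Yap1, Wwtr1, Cyr61, Amotl2 and Ajuba. Lats2 held it from base 5 after 1 of its starts, and Tead2 held none. The windows of Cyr61, Amotl2 and Ajuba are shown, with the motif in capitals as above. None of these genes was called by edgeR without pairing, and Amotl2 passed in DESeq2 and with the replicate block.
Cyr61 (chr3:145649986-145650235, reverse strand): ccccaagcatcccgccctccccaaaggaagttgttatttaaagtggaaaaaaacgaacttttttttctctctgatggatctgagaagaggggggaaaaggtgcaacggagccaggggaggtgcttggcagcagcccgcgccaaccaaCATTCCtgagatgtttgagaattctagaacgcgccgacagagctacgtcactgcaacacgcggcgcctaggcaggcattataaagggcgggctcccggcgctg
Amotl2 (chr9:102717554-102717803, forward strand): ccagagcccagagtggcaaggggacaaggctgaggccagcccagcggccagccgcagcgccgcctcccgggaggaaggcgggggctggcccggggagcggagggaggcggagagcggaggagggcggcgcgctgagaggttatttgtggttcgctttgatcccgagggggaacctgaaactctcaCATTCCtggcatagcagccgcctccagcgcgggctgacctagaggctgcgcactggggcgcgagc
Ajuba (chr14:54577662-54577911, reverse strand): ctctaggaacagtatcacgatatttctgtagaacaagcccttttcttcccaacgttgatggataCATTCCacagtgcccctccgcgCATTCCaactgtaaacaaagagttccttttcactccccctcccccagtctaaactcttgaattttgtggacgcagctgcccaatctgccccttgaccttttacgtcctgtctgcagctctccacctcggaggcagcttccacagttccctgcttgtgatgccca
The motif began 103 bases before the Cyr61 start, 65 bases before the Amotl2 start, and 186 and 164 bases before the Ajuba start. Amotl2 was lower in all 3 donors (28.3% of all genes were), and Cyr61 and Ajuba were not. Whether the motif has a part in these levels was not tested.

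**Figure D3:**
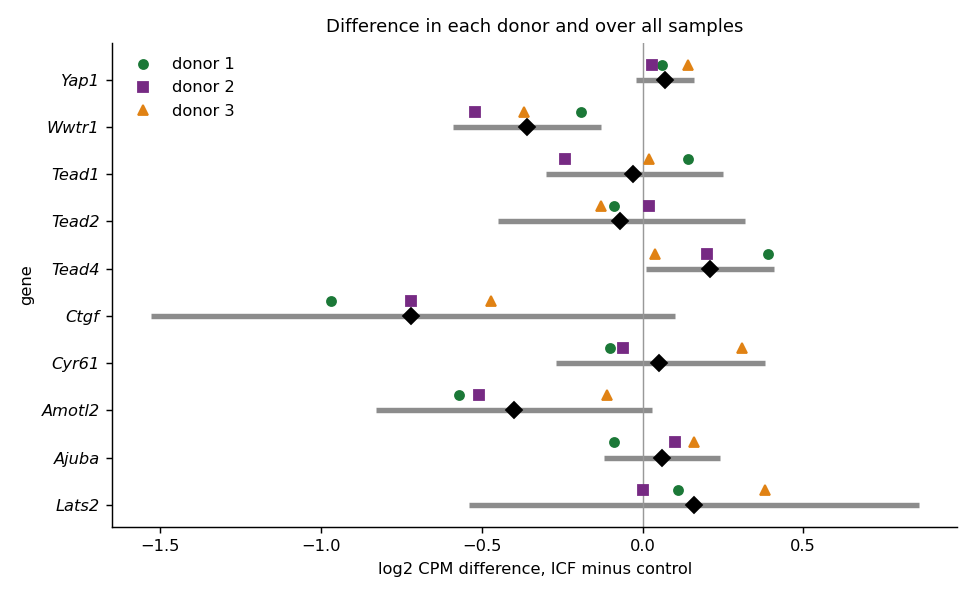
Difference in log2 CPM between ICF and control for each gene. Black diamonds are the difference of group means with its 95% interval in grey (4 residual degrees of freedom), and coloured symbols are the 3 within-donor differences. The interval excludes 0 for Wwtr1 and Tead4, and all 3 donors lie below 0 for Wwtr1, Ctgf and Amotl2.

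Over the 10 genes, 5 were lower and 5 higher with ICF, with a median log2 fold change of 0.02 against 0.003 over all 16729 genes tested. Without pairing, 0 were called higher (3.47% of all genes were) and 1 lower (edgeR), while 4 had an unadjusted p under 0.05 (25.6% of all genes did). DESeq2 called 3 lower and 0 higher, where it called 13.2% of the genes it tested and 7.26% lower. DESeq2 with the replicate block also called 3 lower (11.7% of all genes, 21.3% in either direction). Without replicate 3 of both groups, edgeR called 3 lower and 1 higher, against 30.1% of all genes in either direction. With the replicate block, edgeR called 3 lower and 1 higher, where 29.9% of all genes tested were called (15.3% lower and 14.6% higher). The groups did not overlap for 3 genes in the lower and 2 in the higher direction, against 15.7% and 15.6% of all genes (31.4% in either direction). In all 3 donors, 3 genes were lower (28.3% of all genes) and 2 higher (28.3%). No test compared the 10 genes as a set with other genes.

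**Figure D4:**
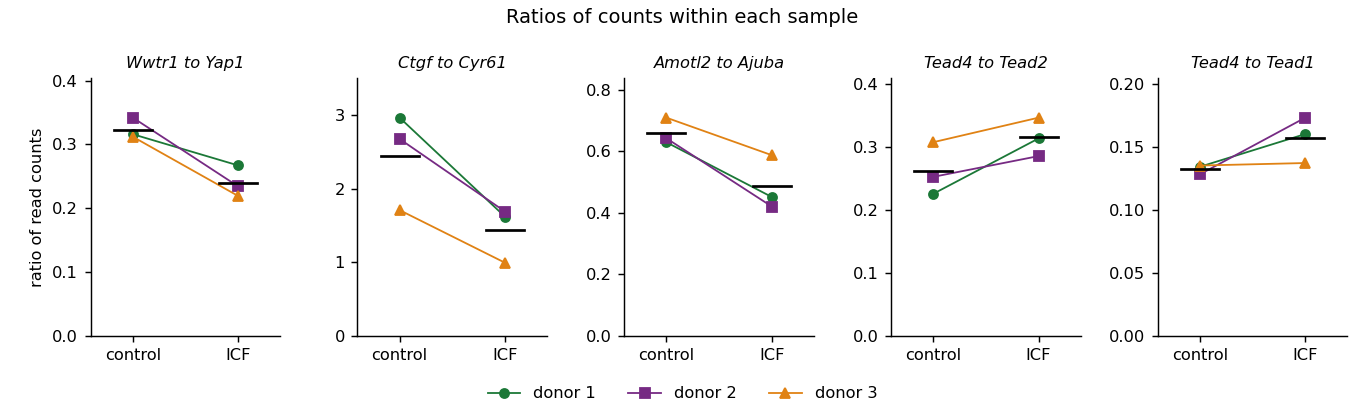
Ratios of read counts of 2 genes within each sample (linear axes from 0), with lines joining the samples of the same donor and black bars for group means. Wwtr1 to Yap1, Ctgf to Cyr61 and Amotl2 to Ajuba go down in all 3 donors, and both Tead4 ratios go up in all 3, by 0.02 on the log2 scale in donor 3 for Tead4 to Tead1.

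Upstream of the coactivators, 17 Hippo kinases and activators were tested. Their log2 fold changes ran from -0.27 to 0.37, and the median was -0.02. Nf2, the gene of the membrane-associated activator Merlin, was called. It rose from 154.4 ± 4.34 (SD, n = 3) to 182.1 ± 9.23 CPM (SD, n = 3), or by 0.24 on the log2 scale (SE 0.05, adjusted p = 0.047, edgeR). Every ICF sample was above every control sample (15.6% of all genes). The call lay close to the threshold and was lost with RLE size factors (adjusted p = 0.05), with upper-quartile factors (0.053) and in 5 of the 7 fits that left samples out: without control replicate 1 (0.17), control replicate 2 (0.2), ICF replicate 1 (0.12), ICF replicate 2 (0.088) or ICF replicate 3 (0.067). The replicate block called 4 of the 17 (edgeR, against 29.9% of all genes): Nf2, with an adjusted p of 0.00035, and 3 genes named after their values were seen. Of these Stk3, the MST2 kinase, fell (log2 fold change -0.27, adjusted p = 0.0019), while Stk4, the MST1 kinase (0.15, adjusted p = 0.03), and Map4k4, a kinase that acts on LATS in parallel to MST (0.23, adjusted p = 0.00072), rose in that fit. Stk4 missed the threshold in DESeq2 with the same block, at an adjusted p of 0.087. The paralogs Stk3 and Stk4 lay on opposite sides of 0 in all 3 donors, where 28.3% of all genes were lower and 28.3% higher in all 3. Lats1, the paralog of Lats2 and also named after its values were seen, was at 34.7 ± 3.85 CPM in the control and 34.9 ± 5.44 with ICF (SD, n = 3).

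Of 9 partner genes (Tead3, angiomotins, LIM proteins and Vgll cofactors), 8 passed the filter on low counts, and 0 were called by edgeR without pairing or by DESeq2 without pairing. At an unadjusted p under 0.05 there were 2 in edgeR (25.6% of all genes) and 1 in DESeq2. Their median log2 fold change was 0.06. The replicate block called 4 of the 8 (edgeR, against 29.9% of all genes), which were named after their values were seen. Amot, which binds YAP1 at junctions as Amotl2 does, was higher in all 3 donors (log2 fold change 0.48, adjusted p = 5.1e-09 with the block, adjusted p = 0.2 without it, edgeR). Its groups overlapped, with 211.3 ± 63.1 CPM in the control and 291.4 ± 64.5 with ICF (SD, n = 3). Tead3 (0.39, adjusted p = 0.0028) and Vgll3, a TEAD cofactor (0.42, adjusted p = 0.038), rose in that fit, and Wtip, a relative of Ajuba, fell (-0.22, adjusted p = 0.0084). Vgll3 and Tead3 missed the threshold in DESeq2 with the same block, at adjusted p-values of 0.25 and 0.051. Amot and Amotl2 went opposite ways in each of the 3 donors. Of all genes tested, 28.3% were higher and 28.3% lower in all 3 donors.

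Of 18 other genes known as YAP/TAZ targets, 0 were called by edgeR without pairing, 7 had an unadjusted p under 0.05 (25.6% of all genes did), and DESeq2 called 2 (13.2% of all genes). The median log2 fold change was 0.09, with 11 genes higher and 7 lower. With the replicate block, 4 rose and 4 fell (edgeR, against 14.6% and 15.3% of all genes), and the following were named after their values were seen. Those that rose were Foxf2, a forkhead factor of mesenchyme (log2 fold change 0.55, adjusted p = 0.00051), Ccdc80 (0.51, adjusted p = 0.012), Ptpn14, a phosphatase that binds YAP1 (0.33, adjusted p = 1e-05), and Axl, a receptor tyrosine kinase (0.24, adjusted p = 0.023). Those that fell were Ankrd1, a cardiac ankyrin repeat protein (-0.46, adjusted p = 0.018), F3, tissue factor (-0.32, adjusted p = 3.7e-05), Nuak2, a kinase (-0.28, adjusted p = 0.019), and Gadd45a, a stress gene that p53 also induces (-0.19, adjusted p = 0.0076). DESeq2 with the same block called 4 of the 18 (21.3% of all genes). Missing the threshold there were Ankrd1 (adjusted p = 0.48), Ccdc80 (0.14), Axl (0.15) and Nuak2 (0.13), and Ankrd1 was lower in 2 of the 3 donors.

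**Figure D5:**
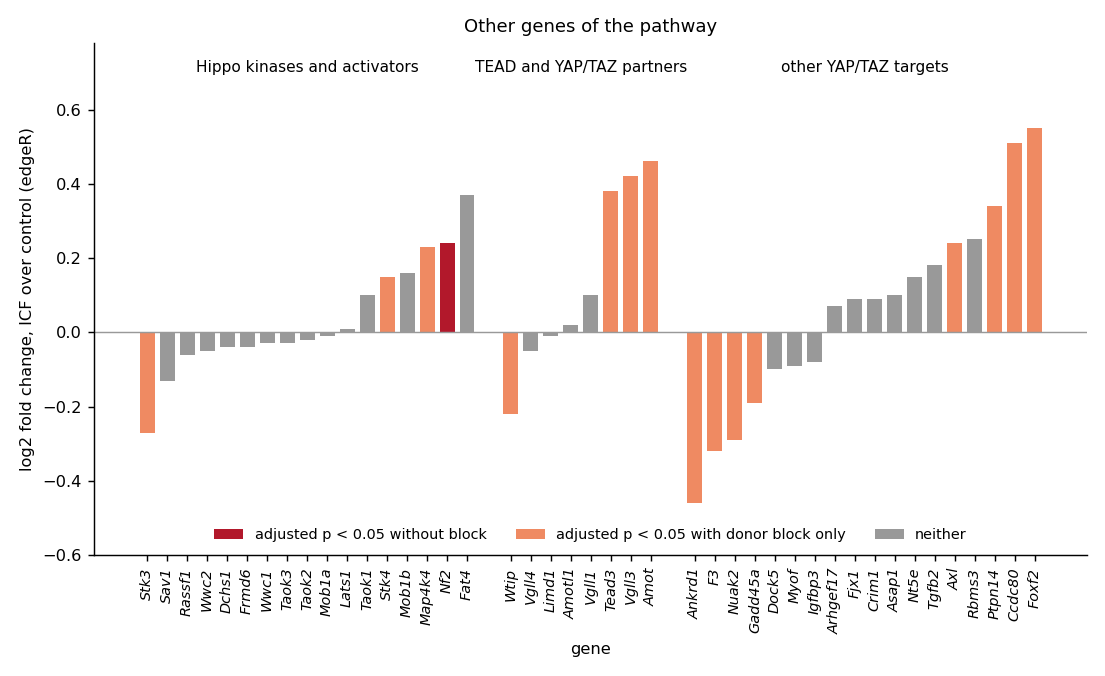
Log2 fold change of ICF over control (edgeR, no pairing) for 17 Hippo kinases and activators, 8 partners and 18 other YAP/TAZ targets, ordered within each list. Dark red bars passed the adjusted p threshold of 0.05 without pairing (Nf2), orange bars passed with the donor block only, and grey bars passed neither. Bars point both ways in each list.

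Some markers of cell types differed between the groups as well, while others in the same lists did not. The summed level of the 9 fibroblast or mesenchyme markers was 222.8 to 249.8 CPM in the control and 251.3 to 274.4 CPM with ICF. Of the 8 that were tested, 7 were higher and 1 lower. Col1a1 rose from 15.3 ± 3.31 to 25.6 ± 2.10 CPM (SD, n = 3) (log2 fold change 0.75, adjusted p = 0.022, edgeR). Col3a1 rose from 9.64 ± 2.16 to 16.0 ± 3.02 CPM (SD, n = 3) (0.73, adjusted p = 0.048). Pdgfra, the largest part of the sum, was nearly level at 177.9 CPM in the control and 182.0 CPM with ICF (0.03, adjusted p = 0.75). Dcn was the lower one (-0.12, adjusted p = 0.77), and Lum was near 0 in every sample. The summed level of the 9 pluripotency markers was 3653.3 to 4460.8 CPM in the control and 3266.7 to 3760.0 CPM with ICF. A large part of that difference was Tdgf1, a Nodal co-receptor, at 721.8 CPM in the control and 411.2 CPM with ICF. Tdgf1 fell by 0.81 on the log2 scale (adjusted p = 0.0028, edgeR). In the list 8 were lower and 1 higher, and Pou5f1, the highest of them, was nearly level (-0.04, adjusted p = 0.79, edgeR). Of 6 endoderm markers 4 were higher and 2 lower. Sox17 fell by 0.34 (adjusted p = 0.045, edgeR), with summed levels of 933.2 to 1157.5 CPM in the control and 1058.4 to 1261.2 CPM with ICF. The summed levels of 5 endothelial markers were 75.5 to 91.4 and 77.4 to 109.8 CPM, and those of 6 neural markers 119.6 to 130.9 and 114.1 to 123.5 CPM. In either list 0 were called by edgeR without pairing (7.85% of all genes were). At an unadjusted p under 0.05 there were 2 each in edgeR (25.6% of all genes), and DESeq2 called 2 and 1 (13.2% of all genes). With the replicate block more markers were called, and those given here were named after their values were seen. In the pluripotency list Klf4 (log2 fold change -0.28, adjusted p = 5.3e-05, edgeR), Dppa5a (-0.29, adjusted p = 1.2e-05) and Utf1 (-0.23, adjusted p = 0.0011) also fell in that fit. In the fibroblast list Col1a2 rose (0.61, adjusted p = 1e-06), and in the endoderm list Dab2 (0.26, adjusted p = 9.7e-05) and Gata6 (0.19, adjusted p = 0.0061) rose, opposite to Sox17. The block called 2 of 5 endothelial and 2 of 6 neural markers (edgeR, against 29.9% of all genes), 1 in each direction in both lists. The call of Tdgf1 held in all 16 alternative settings. The call of Col1a1 was lost without control replicate 1 (adjusted p = 0.082), ICF replicate 1 (0.084) or ICF replicate 2 (0.053), that of Sox17 without any single sample but ICF replicate 2 (up to 0.18), and that of Col3a1 without any of the 6 samples (up to 0.15) and by DESeq2 with the block (0.11), all with the direction kept (edgeR otherwise). The part of these shifts in the changes of Wwtr1, Ctgf and Amotl2 was not tested.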

How the data were processed

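RNA sequencing measured mRNA in 3 ICF-treated and 3 control samples. Single reads of 75 bases were trimmed (Trimmomatic), aligned (HISAT2) and assigned to genes (HTSeq) by the authors, whose deposited values are raw counts. The submitters' processing notes list GRCm38 and hg38, and tool versions for mapping and counting are not given in the sources used here. HTSeq rows that name no gene (38.08% to 40.29% of reads per sample) were left out. Total counts per sample limit the precision as given in the report.

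The counts were tested with edgeR 4.0.16 in R 4.3.3 (quasi-likelihood test, TMM, filterByExpr, group as the only term) over all 16729 genes past the filter, at a Benjamini-Hochberg adjusted p of 0.05. The study's own test was DESeq2. Standard errors and 95% intervals come from log2 CPM (prior count 2) and its spread within groups, with 4 residual degrees of freedom, not from the edgeR fit. Genes were named through GENCODE M21 (GRCm38), which held 50376 of 50686 identifiers.

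Pairing rests on the donor numbers in the sample labels. Deviations from the group means correlated across genes with r = 0.15, 0.2 and 0.38 for same-numbered samples and -0.34 to 0.26 for the others. Control replicate 1 correlated more with ICF replicate 2 (0.26) than with ICF replicate 1 (0.15), so these values do not tell pairs 1 and 2 apart. Whether donors are separate animals or cultures is not stated, so p-values measure the spread between these samples. The block is an alternative fit.

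Members, lists and the naming rule were chosen with earlier results of these data known. The rule names all 10 members, list genes past the threshold, and the highest and lowest markers of each list. Alternatives were DESeq2 1.42.0, RLE and upper-quartile factors, 2 other filters on low counts, the block in edgeR and DESeq2, ICF replicate 3 divided by 4, replicate 3 as a batch, replicate 3 of both groups left out and each sample left out. The procedure was tested on simulated counts that had the same dispersion for all genes and no donor or replicate 3 effect. That test therefore does not cover these features of the data.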

Additional observations from a re-analysis of the deposited data

How the results depend on the processing

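Without pairing, 580 genes were higher and 733 lower with ICF over all genes tested. DESeq2 gave 877 higher and 1071 lower, the replicate block 2445 and 2561, the block with DESeq2 1354 and 1666, and replicate 3 as a batch 2823 and 2876. RLE factors gave 559 and 734, and upper-quartile factors 547 and 757. A filter of at least 1 count in any sample, which kept 29738 genes, gave 841 and 1019. Dividing ICF replicate 3 by 4 gave 667 and 875. With samples left out these counts ran from 85 to 2466 and from 215 to 2627. The counts of members and list genes that follow are to be read beside these totals. Of the 10 members, 1 was called higher with the replicate block and with replicate 3 as a batch. With DESeq2, 3 were called lower (7.26% of all genes were), as with either block (15.3% in edgeR and 11.7% in DESeq2). The filter of at least 1 count in any sample and replicate 3 as a batch also gave 3 lower, and ICF replicate 3 divided by 4 gave 2. With samples left out, 0 to 1 were called higher and 0 to 3 lower, and the median log2 fold change of the members ran from -0.06 to 0.04. Hippo kinases called were 0 with RLE or upper-quartile factors, 2 with DESeq2, 4 with the block or the batch, 3 with the block in DESeq2, and 0 to 6 with samples left out. Partners called were 1 with the filter of 1 count, 4 with the block or the batch, 2 with the block in DESeq2, and 0 to 3 with samples left out. Other targets called were 2 with DESeq2, 3 with the filter of 1 count, 8 with the block or the batch, 4 with the block in DESeq2, 1 with ICF replicate 3 divided by 4, and 0 to 7 with samples left out. The cause of these shifts was not tested.

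Tead4 passed at 0.21 with the block and with the batch. Ctgf passed at -0.76 with DESeq2, -0.75 with the filter of 1 count, -0.73 with either block or the batch, and -0.74 with ICF replicate 3 divided by 4. Amotl2 passed at -0.39 with DESeq2, -0.38 with the filter of 1 count and -0.4 with either block or the batch. The replicate block changed no other member's call. With samples left out, the log2 fold change ran from -0.43 to -0.31 for Wwtr1, 0.17 to 0.3 for Tead4, -0.97 to -0.59 for Ctgf and -0.54 to -0.29 for Amotl2. It crossed 0 for Tead1 (-0.07 to 0.06), Tead2 (-0.14 to 0.05), Cyr61 (-0.08 to 0.14) and Lats2 (-0.06 to 0.31), none of which was called in any fit. Lats2 had the lowest count of the members, 243 reads in a sample.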
